A study of Mus musculus with 15 samples.

Results

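The clustered replication-dependent histone genes were taken as all rows of the deposited count table whose symbol begins with Hist1h, Hist2h, Hist3h or Hist4h, leaving out 1 pseudogene symbol. This gave 69 of 49492 genes, of which 6 encode the linker histone H1, 20 encode H2A, 18 H2B, 12 H3 and 13 H4. On GRCm38 (mm10), 56 of them lie on chromosome 13, 10 on chromosome 3, 2 on chromosome 11 and 1 on chromosome 6. All sequenced cells were mouse CD4+ OT-II T cells, whose transgenic receptor recognises ovalbumin (OVA), and all carried the congenic marker CD45.1. The naive group held CD44lo CD62L+ cells from the superficial lymph nodes and spleens of untreated CD45.1×OT-II mice. For the other 4 groups, such naive cells were transferred into C57BL/6 (WT) or Batf3-/- recipients, which carry CD45.2. After 24 h the recipients received 60 µg OVA with 30 µg papain, a plant protease used as a type 2 adjuvant, through the nose in 3 doses. On day 5, CD44hi donor cells of the mediastinal lymph nodes were sorted into CD62L- and CD62L+ fractions. The groups are called WT CD62L-, WT CD62L+, Batf3-/- CD62L- and Batf3-/- CD62L+ after the recipient and the fraction, since Batf3 was deleted in the recipients and not in the donor cells that were sequenced. Batf3 is a transcription factor needed by type 1 conventional dendritic cells. Each of the 5 groups had 3 libraries. The labels call them independent but do not say which animals they came from. The p-values below rest on the spread between libraries of a group, which may be technical.

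Replication-dependent histone genes supply the histones that package newly made DNA, and dividing cells transcribe them in S phase from nuclear histone locus bodies organised by NPAT. Their messages normally lack introns and a poly(A) tail. They end instead just after a conserved stem-loop, which is bound by the stem-loop binding protein SLBP and guides 3' end cleavage together with the U7 snRNP. When DNA synthesis stops, these messages are degraded, and cells that have left the cycle can make polyadenylated forms of some histone genes from signals further downstream. Resting T cells divide little, and antigen drives them into rapid cycles.

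The stem-loop was looked for in the GENCODE M21 transcripts of the same build, in which all 69 members were found. It was present in 46 members, and a match to the same pattern occurred in 86 of 55341 genes in that annotation (0.155%). Several members without a match have short transcript models, such as Hist1h2bl (381 bases), Hist1h2ai (393) and Hist1h3h (411). Bases past the end of a model were not searched, so a missing match does not show that a gene lacks the stem-loop. The commonest form, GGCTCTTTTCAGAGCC, occurred in 26 members. The form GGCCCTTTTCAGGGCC occurred in 7, all of them H4 genes, and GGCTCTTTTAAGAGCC in 6. The search pattern restricted the bases of the stem-loop and none of those before it, so their variation cannot be compared. The 14 bases before the stem-loop are shown for the members on which the results turn, 5' to 3' on the gene's strand, with the stem-loop in capitals.
Hist1h2ap: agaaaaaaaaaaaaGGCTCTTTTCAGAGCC
Hist1h2ao: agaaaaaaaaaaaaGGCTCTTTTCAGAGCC
Hist1h2ae: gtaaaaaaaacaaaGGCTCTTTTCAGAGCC
Hist1h3c: gctatttaaaaaaaGGCTCTTTTAAGAGCC
Hist1h2ag: tgatcgccaacaaaGGCTCTTTTCAGAGCC
Hist1h1c: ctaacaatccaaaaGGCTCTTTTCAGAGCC
Hist3h2a: ttacagacaccaaaGGCTCTTTTCAGAGCC
Hist1h3f: acgtaaaccaaaacGGCTCTTTTAAGAGCC
Hist1h4m: ctttctcaactaaaGGCCCTTTTCAGGGCC
Hist2h4: cccccatccctaacGGCCCTTTTTAGGGCC
These stretches lie at chr13:21833029-21833058 (minus strand, Hist1h2ap), chr13:21810884-21810913 (plus, Hist1h2ao), chr13:23570668-23570697 (minus, Hist1h2ae), chr13:23745047-23745076 (minus, Hist1h3c) and chr13:22042483-22042512 (minus, Hist1h2ag). The others lie at chr13:23739498-23739527 (plus, Hist1h1c), chr11:58955158-58955187 (plus, Hist3h2a), chr13:23544918-23544947 (plus, Hist1h3f), chr13:21812115-21812144 (plus, Hist1h4m) and chr3:96262939-96262968 (minus, Hist2h4). Hist1h2ap and Hist1h2ao have a run of 12 A directly before the stem-loop, and Hist1h3c has one of 7. Hist1h2ae has a run of 8, which is parted from the stem-loop by the bases caaa. The other 42 members with a stem-loop have runs of 2 to 5 within the 30 bases before it.

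Many members also resemble each other. Of all 50-base windows in a member's transcript, a median of 49.5% occurred in another gene too, and 33 members shared at least 50% of theirs. The median was 73.3% for H2A, 57.3% for H3, 46.8% for H2B, 39.5% for H4 and 1.15% for H1. Hist1h2ao and Hist1h2ap shared over 90% of their windows with each other (93.5% and 93.1%), so reads cannot be assigned to one of them with certainty and their sum is given beside each. Hist1h1c (8.5%), Hist3h2a (2.0%) and Hist2h4 (1.0%) shared few windows, and Hist1h1b shared none.

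The libraries held between 38082967 and 99380475 counted reads, of which 14243 to 34634, or 0.0281 to 0.0388%, fell on members. T cell markers summed to 6949 or more CPM (counts scaled to a common effective library size) in every library, which fits the CD4+ T cell label. The share of reads on rRNA loci was 3.86 to 5.26% in the first library of each group and 8.36 to 16.7% in the others. Other markers moved with the comparison of naive and primed cells. The 7 erythroid markers summed to 573 to 678 CPM in naive and 9.61 to 101 CPM in primed libraries, and 5 to 6 of the 7 were called lower in each primed group. The 8 B cell markers summed to 33.4 to 38.7 CPM in naive, 11.05 to 15.96 in WT CD62L-, 93.4 to 119 in WT CD62L+, 21.7 to 35.5 in Batf3-/- CD62L- and 95.3 to 135 CPM in Batf3-/- CD62L+ libraries. The 2 CD8 T cell markers summed to 48.4 to 57.6 CPM in naive and 12.01 to 30.03 CPM in primed libraries. Nearly all of this was Cd8b1, with a naive mean of 50.75 CPM. Cd8a averaged 1.04 CPM in naive, 0.344 in WT CD62L-, 2.30 in WT CD62L+, 0.009 in Batf3-/- CD62L- and 0.676 CPM in Batf3-/- CD62L+ cells. The markers thus did not move alike in WT CD62L+ cells. The 6 dendritic cell and macrophage markers summed to 14.7 to 16.7 CPM in naive and 14.2 to 24.6 CPM in primed libraries. The 5 germinal centre B cell markers, some of which follicular helper T cells also express, summed to 75.0 to 82.8 CPM in naive, 177 to 224 in CD62L- and 106 to 123 CPM in CD62L+ libraries. No listed marker was at 0 over all libraries, and the part of other cells in the results below was not tested. Naive cells also differ from primed ones in organ, transfer and sort, which cannot be told apart from priming.

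The balance between histone types differed between naive and primed cells, while the level of all members together overlapped. All members summed to 286 to 306 CPM in naive and 270.4 to 411 CPM in primed libraries. H2A stood higher in each of the 12 primed libraries, at 209.9 to 347 CPM against 148 to 169 CPM in naive ones. H1, H2B and H4 stood lower in every primed library. The H1 sum was 27.5, 39.4 and 34.5 CPM in the naive libraries and 10.3 to 19.6 CPM in the primed ones. The H2B sum was 43.7, 43.8 and 45.1 CPM in naive and 18.4 to 26.8 CPM in primed libraries. The H4 sum was 42.8, 43.1 and 52.3 CPM in naive and 12.1 to 31.4 CPM in primed libraries. H3 overlapped, at 10.1 to 11.9 CPM in naive and 7.22 to 29.0 CPM in primed libraries. These sums are descriptions without a test. In bulk RNA, fewer cells of a type and less RNA per cell cannot be told apart.

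The higher H2A sum rested on a single pair of genes. Hist1h2ao and Hist1h2ap together held 35.7 to 38.6 CPM in naive and 152 to 279 CPM in primed libraries. They made up 11.8 to 13.5% of all member counts in naive and 53.9 to 70.5% in primed libraries. Without them the sum of the other 18 H2A genes was lower in primed cells, at 57.5 to 91.4 CPM against 112 to 133 CPM. Most of that sum in naive cells came from Hist3h2a and Hist2h2aa2, with means of 72.1 and 34.0 CPM. It does not describe the single genes. Of the 14 tested H2A genes named Hist1h, the pair included, 13 had positive log2 fold changes in WT CD62L- and in WT CD62L+ cells. The other 67 members together also stood lower, at 117 to 181 CPM against 247 to 269.6 CPM. The third WT CD62L- library, which had the lowest total, had the highest level of the pair.

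**Figure D1:**
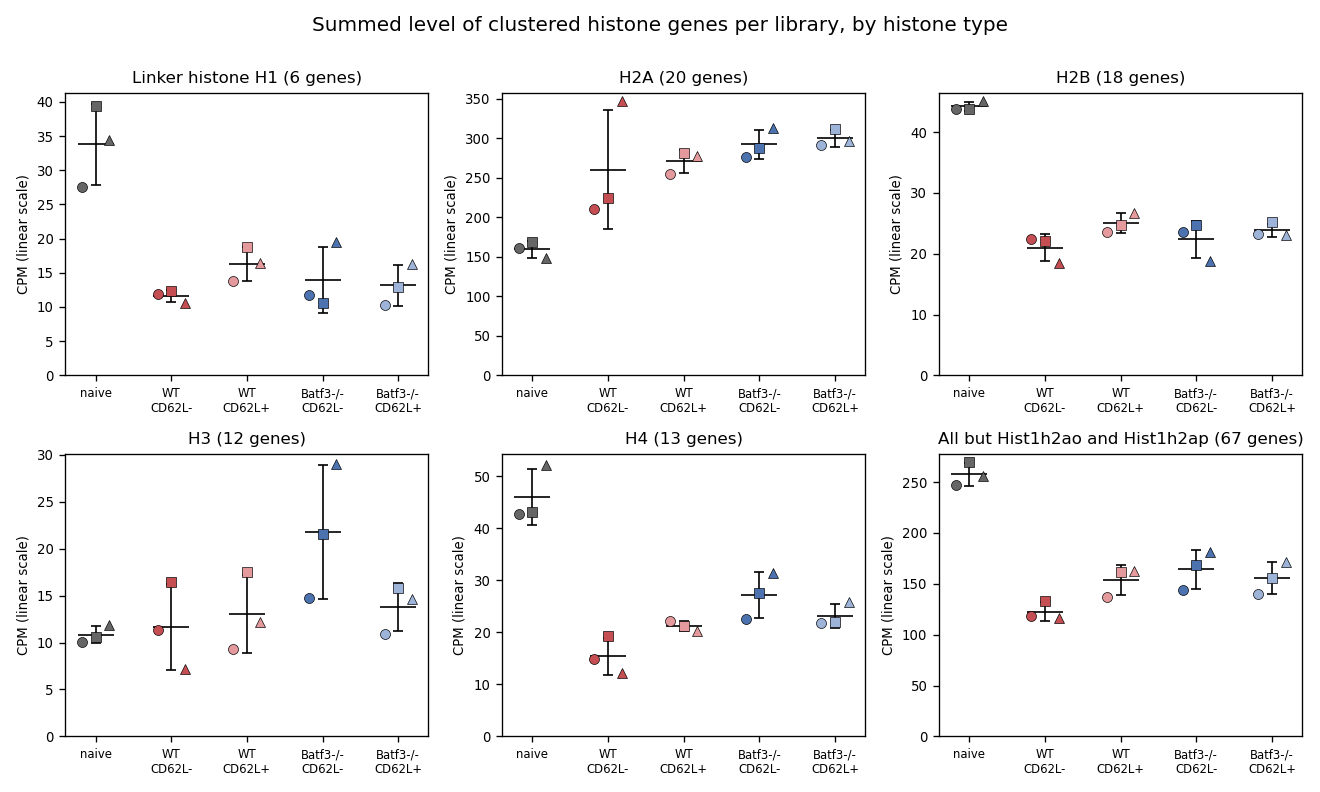
Summed CPM (linear axis from 0) of the members of each histone type, and of all members but Hist1h2ao and Hist1h2ap, in every library. Each symbol is 1 library, with circle, square and triangle for replicates 1, 2 and 3, and the bar and whiskers are the mean and SD of 3 libraries. H2A stands higher in every primed library (209.9 CPM or more against at most 169), H1, H2B and H4 stand lower, and H3 overlaps.

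The first comparison asks how the primed groups differed from naive cells. In each of them 8 to 10 of 14 tested H2A genes named Hist1h rose, while 3 to 4 of 17 H2B genes and 4 to 7 of 13 H4 genes fell, and no H2B or H4 gene was called higher. Of the 66 members that passed the filter on low counts, 25 were called in WT CD62L- cells (10 higher, 15 lower) and 24 in WT CD62L+ cells (10 higher, 14 lower). For the groups from Batf3-/- recipients the numbers were 24 for CD62L- (13 higher, 11 lower) and 25 for CD62L+ (11 higher, 14 lower). Calls were made with edgeR's quasi-likelihood test at a Benjamini-Hochberg adjusted p under 0.05. The members' shares of 37.9, 36.4, 36.4 and 37.9% stand beside 30.1, 27.2, 29.3 and 30.2% of all 19942 genes tested. Over all genes, 16.9, 15.8, 16.5 and 16.9% were called higher and 13.2, 11.4, 12.8 and 13.3% lower in these comparisons. The members' median log2 fold change was -0.70, -0.10, 0.59 and -0.16, against -0.08, -0.01, 0.00 and 0.00 over all genes. The 4 comparisons share the naive libraries, so their values are given side by side and are not independent of each other.

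The types divided as follows, in the same order of groups. Of 14 tested H2A genes named Hist1h, 8, 8, 10 and 9 were called higher, and 1 was called lower in WT CD62L- cells (Hist1h2al). Hist1h2aj was called higher in WT CD62L- cells, and this call was lost in 8 of 26 alternative settings. They include leaving out the third library of that group (log2 fold change 1.06 in place of 1.97, adjusted p = 0.189, edgeR) or any 1 naive library (0.0851, 0.0658 and 0.0878). The 5 H2A genes of the other clusters had none called higher and 2 lower in each group. Of 17 H2B genes none was called higher, and 3, 4, 4 and 4 were called lower. The H2B genes as a whole lay on both sides of 0, with 4, 9, 9 and 6 positive log2 fold changes and medians of -0.85, 0.04, 0.45 and -0.21. Of 13 H4 genes none was called higher, and 7, 6, 4 and 6 were called lower, with medians of -1.97, -1.55, -0.53 and -0.94. Of 5 H1 genes 1 was called higher in each group and 2, 1, 1 and 1 lower. Of 12 H3 genes 1, 1, 2 and 1 were called higher and 0, 1, 0 and 1 lower. Over all 11 comparisons made, 32 members were called at least once and 34 never. Among the 33 tested members that share under 50% of their windows with other genes, 3, 4, 5 and 4 were called higher and 11, 11, 8 and 11 lower.

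**Figure D2:**
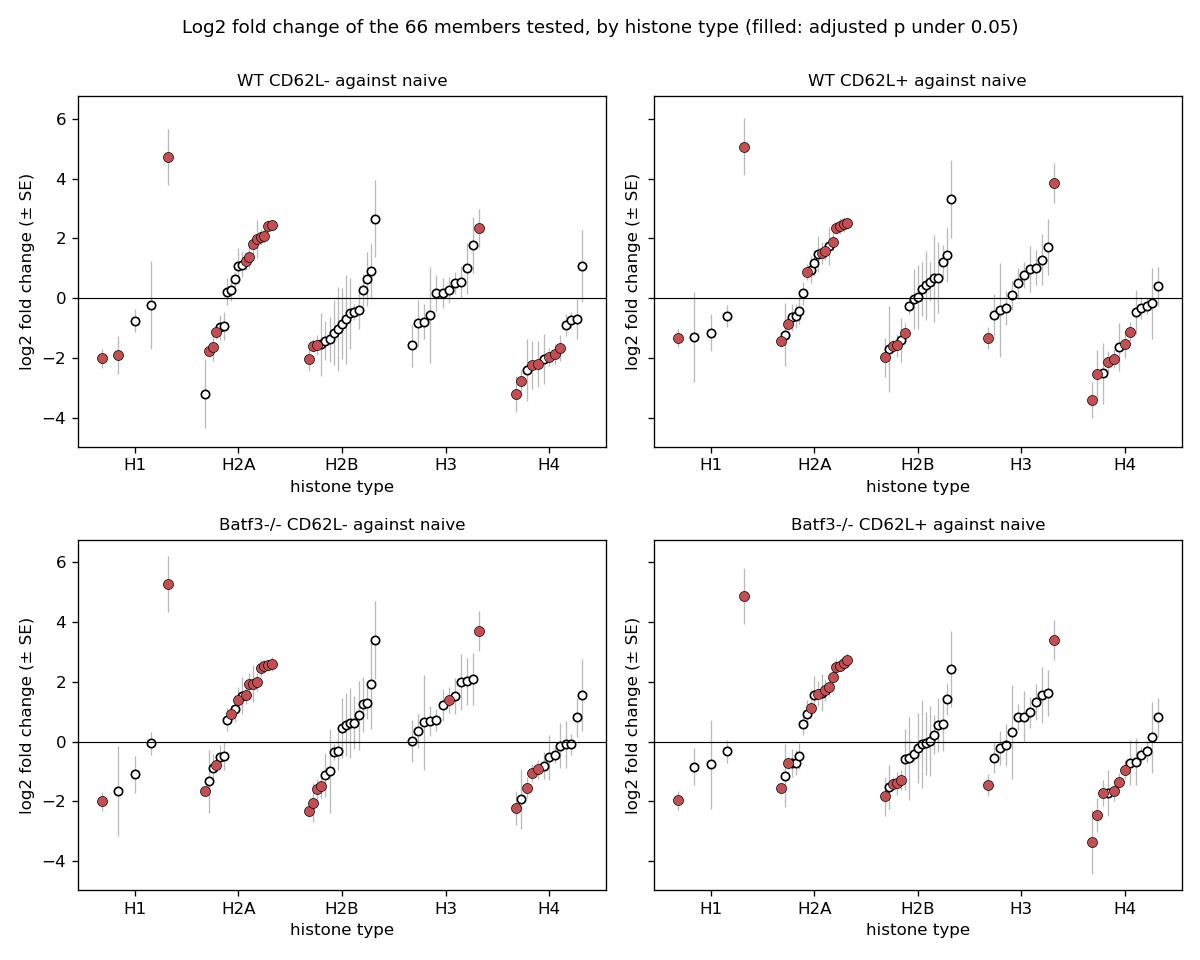
Log2 fold change against naive cells with its SE for the 66 members tested, in 1 panel per primed group, ordered by size within each histone type. Filled points have an adjusted p under 0.05. The filled H2A points lie on both sides of 0, the filled H2B and H4 points all lie below it, and the highest filled H1 point is Hist1h1b.

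Among the linker histone genes, Hist1h1b and Hist1h1c changed in opposite directions. Both encode somatic forms of H1, which binds the DNA between nucleosomes. Hist1h1b had 14, 0 and 0 counts in the naive libraries. It had 113, 67 and 40 counts in WT CD62L-, 122, 182 and 99 in WT CD62L+, 161, 155 and 135 in Batf3-/- CD62L- and 73, 114 and 142 in Batf3-/- CD62L+ libraries. The gene was thus at or close to 0 in naive cells and above all of them in each primed library. It rose with adjusted p = 0.00142, 0.00103, 0.00073 and 0.00121 (edgeR), and the fitted log2 fold changes were 4.73, 5.07, 5.26 and 4.85 (SE 0.93 to 0.95). Their size depends on the first naive library, since without it no naive count remained and the fit gave 9.60 to 10.14.

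Hist1h1c was the most abundant H1 gene per length, with a mean of 7.48 CPM per kb over all libraries. In naive libraries it stood at 20.7, 32.3 and 28.4 CPM. In primed libraries it stood at 6.06, 6.85 and 7.36 CPM (WT CD62L-), 8.45, 12.3 and 11.5 (WT CD62L+), 6.29, 4.64 and 9.56 (Batf3-/- CD62L-) and 4.01, 7.43 and 9.35 CPM (Batf3-/- CD62L+). Every primed library lay below every naive one. Hist1h1c fell by 2.01, 1.33, 1.99 and 1.97 on the log2 scale (SE 0.31 to 0.32, adjusted p = 0.000263, 0.00554, 0.000282 and 0.000302, edgeR). Hist1h1e, which encodes another somatic H1, averaged 4.53 ± 0.233 CPM in naive cells (SD, n = 3) and 2.68 to 4.33 CPM in the primed groups, and did not pass in any comparison (adjusted p = 0.148, 0.258, 0.928 and 0.545, edgeR).

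Among the H2A genes, Hist1h2ap had the highest level of all members per length (272 CPM per kb), followed by Hist1h2ao (84.7). Both encode H2A, one of the core histones of the nucleosome. Hist1h2ap stood at 29.5, 28.1 and 27.8 CPM in naive libraries. In primed libraries it stood at 114, 123 and 217 (WT CD62L-), 139.5, 151 and 144 (WT CD62L+), 156, 159 and 177 (Batf3-/- CD62L-) and 163, 177 and 157 CPM (Batf3-/- CD62L+). Naive and primed libraries lay far apart. Among the primed groups, WT CD62L- libraries spanned the range of the others, and WT CD62L+ libraries lay below those of both Batf3-/- groups. Hist1h2ap was 5.32-, 5.09-, 5.76- and 5.82-fold higher, with log2 fold changes of 2.41, 2.35, 2.53 and 2.54 (SE 0.19, adjusted p = 2.51e-07, 3.63e-07, 1.75e-07 and 1.7e-07, edgeR). Hist1h2ao rose alike, from 9.16, 8.13 and 7.84 CPM in naive libraries to 37.5 to 61.6 CPM in primed ones (log2 fold changes 2.45, 2.51, 2.55 and 2.64, largest adjusted p = 1.16e-07, edgeR).

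Hist1h2ag and Hist1h2ab rose as well, though without a long run of A before their stem-loops. Hist1h2ag shares 78.9% of its windows with other genes, 71.8% with Hist1h2ao, and Hist1h2ab shares 58.0%. Hist1h2ag stood at 0.841, 1.20 and 1.39 CPM in naive libraries. It stood at 5.10, 3.78 and 5.52 CPM in WT CD62L-, 5.77, 7.02 and 6.14 in WT CD62L+, 6.95, 6.66 and 7.12 in Batf3-/- CD62L- and 7.39, 7.50 and 7.60 CPM in Batf3-/- CD62L+ libraries. All primed libraries lay above the naive ones (log2 fold changes 2.07, 2.46, 2.59 and 2.71, largest adjusted p = 9.72e-06, edgeR). Hist1h2ab rose from 0.627 to 0.736 CPM to between 2.47 and 4.23 CPM (log2 fold changes 2.05, 2.41, 2.47 and 2.48, largest adjusted p = 3.09e-05, edgeR). Hist1h2ah and Hist1h2an were also called higher in each group, with log2 fold changes of 1.80 to 2.17 and 1.25 to 1.81. These small models overlap others on the opposite strand, and the sources used here do not say how strand was used in counting. Hist1h2ah and Hist1h2an share 90.7 and 85.8% of their windows with other genes. The part of reads from similar genes in these rises was not tested.

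The H2A genes outside the Hist1 cluster went the other way. Hist3h2a, the only H2A member on chromosome 11, stood at 71.3, 80.1 and 64.8 CPM in naive libraries. It stood at 18.4, 25.3 and 19.4 CPM in WT CD62L-, 22.02, 26.3 and 31.8 in WT CD62L+, 22.4, 23.8 and 22.8 in Batf3-/- CD62L- and 22.5, 24.5 and 26.4 CPM in Batf3-/- CD62L+ libraries. No primed library came near the naive range, and Hist3h2a fell by 1.78, 1.43, 1.65 and 1.56 on the log2 scale (SE 0.16, largest adjusted p = 8.1e-06, edgeR). Its deposited model runs 1643 bases past the stem-loop and overlaps Trim17 on the same strand and Gm44313 on the opposite one. The part of reads from these genes in its count was not tested. Hist2h2aa2, which shares every window with the annotated gene Gm20633, fell from 30.0 to 36.2 CPM to between 14.03 and 26.3 CPM (adjusted p = 0.000751, 0.00695, 0.011 and 0.0164, edgeR). The sum of Hist2h2aa2 and Hist2h2aa1 was 31.1 to 37.2 CPM in naive and 14.5 to 27.3 CPM in primed libraries. The call of Hist2h2aa2 was lost in Batf3-/- CD62L+ cells without the first or second naive library (adjusted p = 0.0532 and 0.0516, edgeR) or the first or second library of that group (0.102 and 0.0695), and in Batf3-/- CD62L- cells without the first library of that group (0.0501).

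Among the H2B genes the called members all fell. Hist1h2bc, the most abundant of them per length (8.36 CPM per kb), stood at 13.5, 13.6 and 13.99 CPM in naive libraries. It stood at 4.52, 4.31 and 4.89 CPM in WT CD62L-, 4.71, 4.49 and 4.40 in WT CD62L+, 2.58, 3.50 and 2.16 in Batf3-/- CD62L- and 4.35, 5.55 and 5.64 CPM in Batf3-/- CD62L+ libraries. All primed libraries lay well below the naive ones, and the Batf3-/- CD62L- libraries were the lowest. Hist1h2bc was 3.00-, 3.02-, 4.99- and 2.65-fold lower (SE 0.21 on the log2 scale, adjusted p = 4.18e-05, 4.31e-05, 1.3e-06 and 0.000119, edgeR). Hist1h2bg fell from 3.60 to 4.23 CPM to between 0.416 and 1.72 CPM (log2 fold changes -2.05, -1.58, -1.50 and -1.39, adjusted p = 0.00111, 0.00702, 0.00854 and 0.013, edgeR). Its call in Batf3-/- CD62L+ cells was lost without the first or the second library of that group (adjusted p = 0.0568 and 0.0551, edgeR).

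Hist3h2ba, the H2B gene beside Hist3h2a, fell too. It stood at 6.86 to 8.53 CPM in naive and 1.64 to 4.01 CPM in primed libraries (log2 fold changes -1.56, -1.16, -1.58 and -1.29, adjusted p = 0.00249, 0.0168, 0.0023 and 0.00818, edgeR). Its call in WT CD62L+ cells was lost without the second naive library (adjusted p = 0.0598, edgeR) or the first or the third library of that group (0.0725 and 0.0584). Hist1h2be was called lower in WT CD62L+, Batf3-/- CD62L- and Batf3-/- CD62L+ cells (adjusted p = 0.0368, 0.0296 and 0.0467, edgeR) and not in WT CD62L- cells (adjusted p = 0.113). Each of its 3 calls was lost in 5, 6 and 12 of 26 alternative settings, so it is the least stable H2B call.

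Pairs of H2A and H2B genes are transcribed away from each other from a shared promoter. By overlapping promoter windows 10 such pairs were found, 9 with both genes tested. Members without a promoter matched in RefSeq could not enter, among them Hist1h2bc, Hist1h2aj and Hist2h2be. Hist1h2bc starts close to Hist1h2ac on the opposite strand and was called lower in all 4 groups. Hist1h2ac was called higher in all but WT CD62L- cells. The counts below leave out such neighbours. This comparison was chosen after values had been seen. In 5, 5, 6 and 6 of the 9 pairs exactly 1 gene was called against naive cells, each time the H2A gene, and it rose. In 1 pair both were called in each group, in opposite directions. In that pair, with windows that share 279 bases, Hist1h2ae rose from 1.43 to 2.38 CPM to between 2.51 and 7.83 CPM (adjusted p = 0.012, 0.00754, 0.00134 and 0.00277, edgeR), while Hist1h2bg fell as given above. The increase of Hist1h2ae in WT CD62L- cells fell from 1.37 to 0.78 on the log2 scale without the third library of that group, and the call was then lost (adjusted p = 0.0727, edgeR). Without the third naive library its adjusted p was 0.0546. The most abundant H2A genes had partners with low counts. Over all libraries Hist1h2ap averaged 131 CPM and its partner Hist1h2br 0.570. Hist1h2ao averaged 40.7 CPM and its partner Hist1h2bq 0.200. Per kb the values were 272 and 0.258, and 84.7 and 0.0900, but the partners' deposited models are longer (2212 and 2217 bases, against 482 and 480). Hist1h2bq and Hist1h2br share 97.3 and 88.5% of their windows with other genes, so reads cannot be assigned to either with certainty. The output of the shared promoters was not tested.

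Promoter sequences of 62 members, 250 bases before to 50 after the start, were matched in RefSeq on GRCm38.p6. Motifs were looked for on both strands. The octamer ATTTGCAT, the binding motif of OCT1 in H2B promoters, was found in 7 of 18 H2A and 6 of 16 H2B promoters and in none of the other types, against 1.7% of 32851 promoters in that table. CCAAT was found in all 50 promoters of H1, H2A, H2B and H3 genes and in 3 of 12 of H4 genes, against 37.4% of all promoters. The letters GGTCCG, part of the H4 element bound by HINFP, were found in 11 of 12 H4 promoters and in 2 others, against 8.3% of all. TATAAA was found in 35 of 62, against 13.6% of all. A match is a description of these letters and not a site. Stretches of the 100 bases before the start are shown with motif matches in capitals. They come from an H4 gene that fell, from the H2A gene with the highest level, and from Hist1h2bg, the partner of Hist1h2ae.
Hist1h4m: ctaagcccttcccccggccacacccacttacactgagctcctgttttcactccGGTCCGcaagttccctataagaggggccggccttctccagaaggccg
Hist1h2ap: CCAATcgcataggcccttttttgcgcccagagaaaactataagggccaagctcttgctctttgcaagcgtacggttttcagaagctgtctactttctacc
Hist1h2bg: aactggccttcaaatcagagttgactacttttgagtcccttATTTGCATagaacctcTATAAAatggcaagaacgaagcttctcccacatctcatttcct
They lie at chr13:21811646-21811745 (plus strand), chr13:21833476-21833575 (minus) and chr13:23571300-23571399 (plus). The letters GGTCCG stand in promoters of H4 genes that fell, such as Hist1h4m, and of some that did not pass, such as Hist1h4d. The matched H4 promoter without them is that of Hist1h4a, which was called lower in WT CD62L- cells. No promoter of Hist2h4 was matched.

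Among the H3 genes, Hist1h3c rose from near 0. It had 4, 3 and 8 counts in the naive libraries. It had 18, 24 and 8 counts in WT CD62L-, 43, 87 and 68 in WT CD62L+, 84, 36 and 64 in Batf3-/- CD62L- and 45, 48 and 51 in Batf3-/- CD62L+ libraries. Scaled to library size, every primed library (0.222 CPM or more) lay above every naive one (at most 0.0984 CPM). The log2 fold changes were 2.34, 3.84, 3.69 and 3.40 (SE 0.64 to 0.67, adjusted p = 0.013, 0.000597, 0.000719 and 0.00123, edgeR). Without the third naive library they were 2.93 to 4.43. The call in WT CD62L- cells was lost without the first or the second naive library (adjusted p = 0.0554 and 0.0566, edgeR). Hist2h3b and Hist2h3c2, the H3 genes with the highest and the third highest levels per length (3.88 and 2.49 CPM per kb), did not pass in any comparison. Hist1h3f, with 2.62 CPM per kb, fell in both CD62L+ groups (log2 fold changes -1.33 and -1.46, adjusted p = 0.0156 and 0.00828, edgeR) and is described below. Its call in WT CD62L+ cells was lost in 3 of 26 alternative settings.

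Among the H4 genes the called members all fell. Hist1h4m stood at 8.71, 7.70 and 8.07 CPM in naive libraries. It stood at 1.54, 1.31 and 0.666 CPM in WT CD62L-, 2.76, 1.40 and 1.38 in WT CD62L+, 2.50, 3.23 and 2.67 in Batf3-/- CD62L- and 1.88, 3.21 and 2.78 CPM in Batf3-/- CD62L+ libraries. No primed library reached the naive range, and Hist1h4m fell by 2.78, 2.14, 1.54 and 1.64 on the log2 scale (SE 0.35 to 0.37, adjusted p = 5.09e-05, 0.000448, 0.00424 and 0.0028, edgeR). Hist1h4m shares 89.8% of its windows with Hist1h4n, which also fell in each group (log2 fold changes -1.97, -2.02, -1.06 and -1.34). The sum of both was 11.8 to 12.8 CPM in naive and 1.61 to 5.26 CPM in primed libraries. The call of Hist1h4n in Batf3-/- CD62L- cells was lost without the second naive library or the first library of that group (adjusted p = 0.0503 and 0.0508, edgeR).

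Hist2h4 shares almost none of its windows with other genes and had large falls. It stood at 3.80, 4.74 and 8.46 CPM in naive libraries. It stood at 0.623, 0.166 and 1.08 CPM in WT CD62L-, 0.676, 0.263 and 0.675 in WT CD62L+, 1.18, 1.01 and 1.42 in Batf3-/- CD62L- and 0.966, 0.799 and 1.32 CPM in Batf3-/- CD62L+ libraries. Primed and naive libraries did not overlap, and Hist2h4 fell by 3.20, 3.40, 2.24 and 2.46 on the log2 scale (SE 0.57 to 0.60, adjusted p = 0.000954, 0.000685, 0.00852 and 0.00485, edgeR). Without the third WT CD62L- library the value in that group was -3.83. Its deposited model runs 1257 bases past the stem-loop. Hist1h4d and Hist1h4i, the H4 genes with the highest levels per length (16.9 and 8.69 CPM per kb), did not pass in any comparison. Hist1h4d averaged 8.17 ± 1.38 CPM in naive and 4.36 to 7.71 CPM in primed groups (SD, n = 3).

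Other H4 calls were less stable. Hist1h4c was called lower in each group (log2 fold changes -1.86, -1.12, -0.93 and -0.94, adjusted p = 0.000652, 0.02, 0.0441 and 0.0412, edgeR), but the last 3 calls were lost in 3, 15 and 11 of 26 alternative settings. Hist1h4h was called lower in all groups but Batf3-/- CD62L- (adjusted p = 0.0116, 0.0188 and 0.00954, edgeR). Its call in WT CD62L+ cells was lost without the first or the third naive library (adjusted p = 0.0516 and 0.0748, edgeR) or the third library of that group (0.0858). Hist4h4 was called lower in WT CD62L- and WT CD62L+ cells (adjusted p = 0.0475 and 0.0287, edgeR). The call in WT CD62L- cells was lost in 15 of 26 alternative settings, among them without any 1 library of that group (adjusted p = 0.0939, 0.0725 and 0.141, edgeR) and without the second naive library (0.0604). That in WT CD62L+ cells was lost in 3, among them without the second or the third library of that group (adjusted p = 0.0952 and 0.0859, edgeR). Without the third naive library both calls were lost (log2 fold changes -1.43 and -1.76 in place of -2.20 and -2.53, adjusted p = 0.236 and 0.156, edgeR). Without the first WT CD62L+ library the value in that group was -3.20. Hist1h4a was called lower in WT CD62L- cells (log2 fold change -2.23, adjusted p = 0.0486, edgeR), and this call was lost in 22 of 25 alternative settings, including each one that left out a library. Hist1h4j was called lower in Batf3-/- CD62L+ cells (log2 fold change -3.36, adjusted p = 0.0279, edgeR), and this was lost without the first naive library (-2.72, adjusted p = 0.119, edgeR). Leaving out 1 of the 3 libraries of that group gave an adjusted p of 0.0563 to 0.0968.

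**Figure D3:**
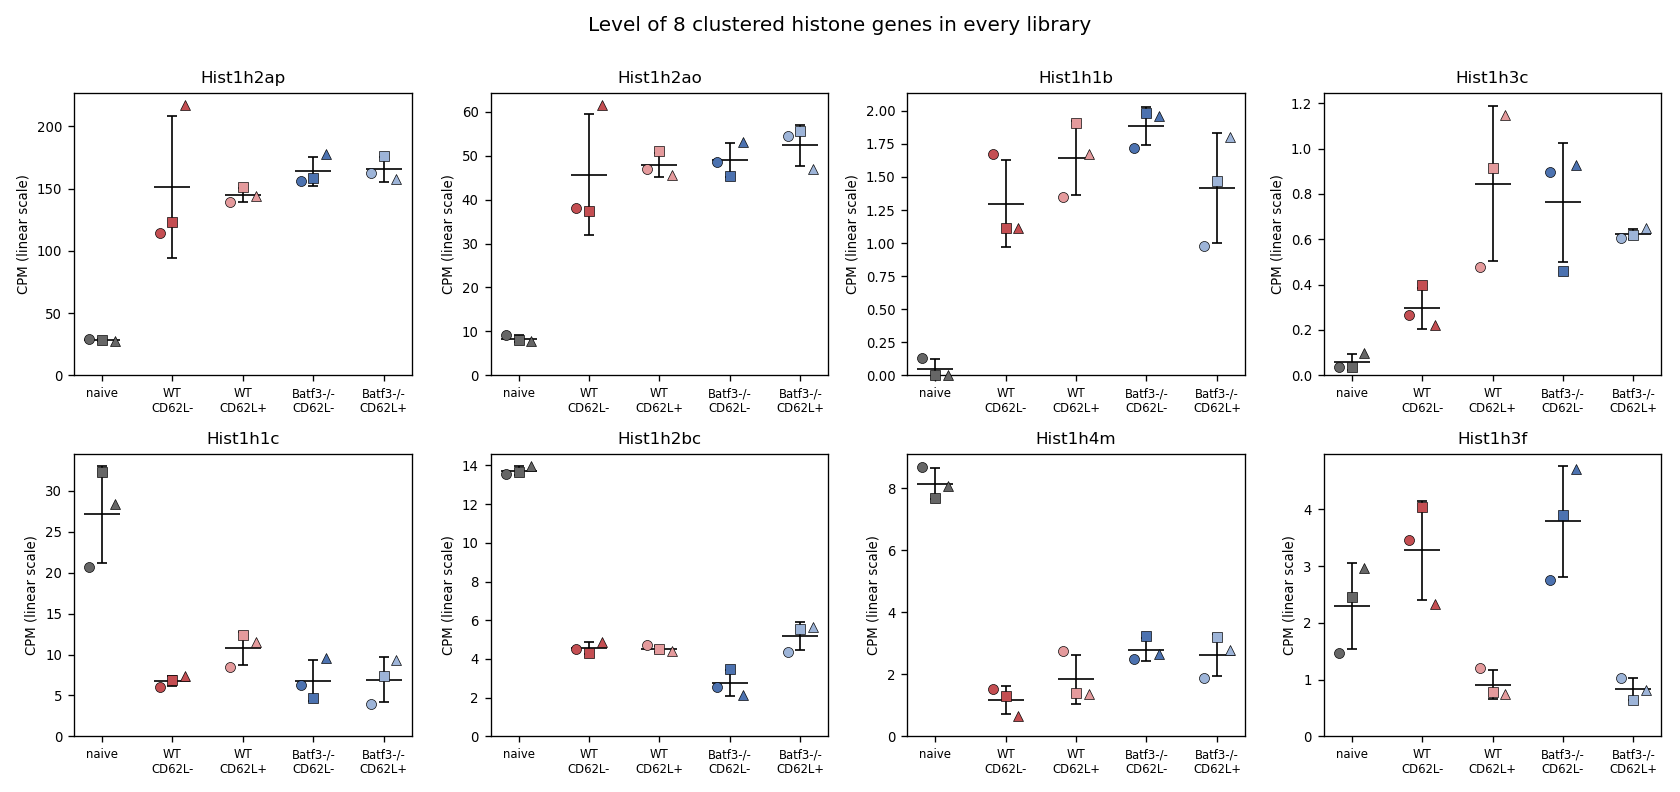
CPM (linear axis from 0) of 8 members in every library, with circle, square and triangle for replicates 1, 2 and 3, and the mean and SD of 3 libraries as bar and whiskers. Hist1h2ap, Hist1h2ao, Hist1h1b and Hist1h3c stand higher in every primed library than in any naive one, Hist1h1c, Hist1h2bc and Hist1h4m lower, and Hist1h3f is split between CD62L- and CD62L+ cells.

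The members that rose and fell were set beside the ends of their transcripts, in groups chosen after values had been seen and so without a test. The 4 members with a run of 7 or more A before the stem-loop (Hist1h2ap, Hist1h2ao, Hist1h2ae and Hist1h3c) had positive log2 fold changes in all 4 comparisons, with medians of 2.37, 2.43, 2.54 and 2.59. Of the 41 tested members with a shorter run, 15, 16, 20 and 16 had positive values, with medians of -0.85, -0.41, -0.07 and -0.44. Members without a stem-loop match, such as Hist1h1b, Hist1h2ah and Hist1h2an, are in neither set. The members with long runs, all but Hist1h3c, are H2A genes named Hist1h. Of the 14 tested genes of that kind, 13 were positive in WT CD62L- and in WT CD62L+ cells. Run length and histone type therefore cannot be told apart here. Members with short runs still spread widely, and Hist1h2ag (3 A) and Hist1h2ab (4 A) reached the range of the longer ones. Hist1h2ag, however, shares 71.8% of its windows with Hist1h2ao, and Hist1h2ab shares 58.0% with other genes. Their values are therefore not independent of those of similar genes. Hist1h2ac (3 A) shares 14.1% of its windows and was also positive, at 0.630, 0.881, 0.935 and 1.117. Hist1h2ad (5 A) shares 67.1% and was positive too, at 1.122, 1.161, 1.395 and 1.606. Runs of A and near-identical sequence come together in Hist1h2ao and Hist1h2ap, which have the same bases over the stretch shown.

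The models of 14 members run 100 bases or more past the stem-loop, among them Hist3h2a, Hist2h4, Hist1h1c (840 bases) and Hist1h3f (365 bases). Of these 14, 0, 0, 1 and 0 were called higher against naive cells and 6, 7, 5 and 7 lower. Of the 28 whose models end within 100 bases of it, 6, 7, 8 and 8 were called higher and 7, 6, 5 and 6 lower. Over all genes, 16.9, 15.8, 16.5 and 16.9% were called higher and 13.2, 11.4, 12.8 and 13.3% lower. The sets also differ in histone type. Hist3h2a is the only H2A gene among the 14, while Hist1h2ap, Hist1h2ao, Hist1h2ag, Hist1h2ae and Hist1h2ab are among the 28. Model end and histone type therefore cannot be told apart here. Members without a stem-loop match, or whose deposited model ends before it, are in neither set. The sources used here do not say how cDNA synthesis was primed. RNAs without a poly(A) tail (19 listed, 16 tested, mostly small nuclear and nucleolar RNAs) summed to 21.1 to 28.6 CPM in naive and 6.73 to 26.9 CPM in primed libraries. Of the 16 tested, 3, 0, 4 and 1 were called higher and 4, 6, 3 and 6 lower, beside the shares of all genes just given. The part of transcript ends and of tail length in the members' changes was not tested.

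**Figure D4:**
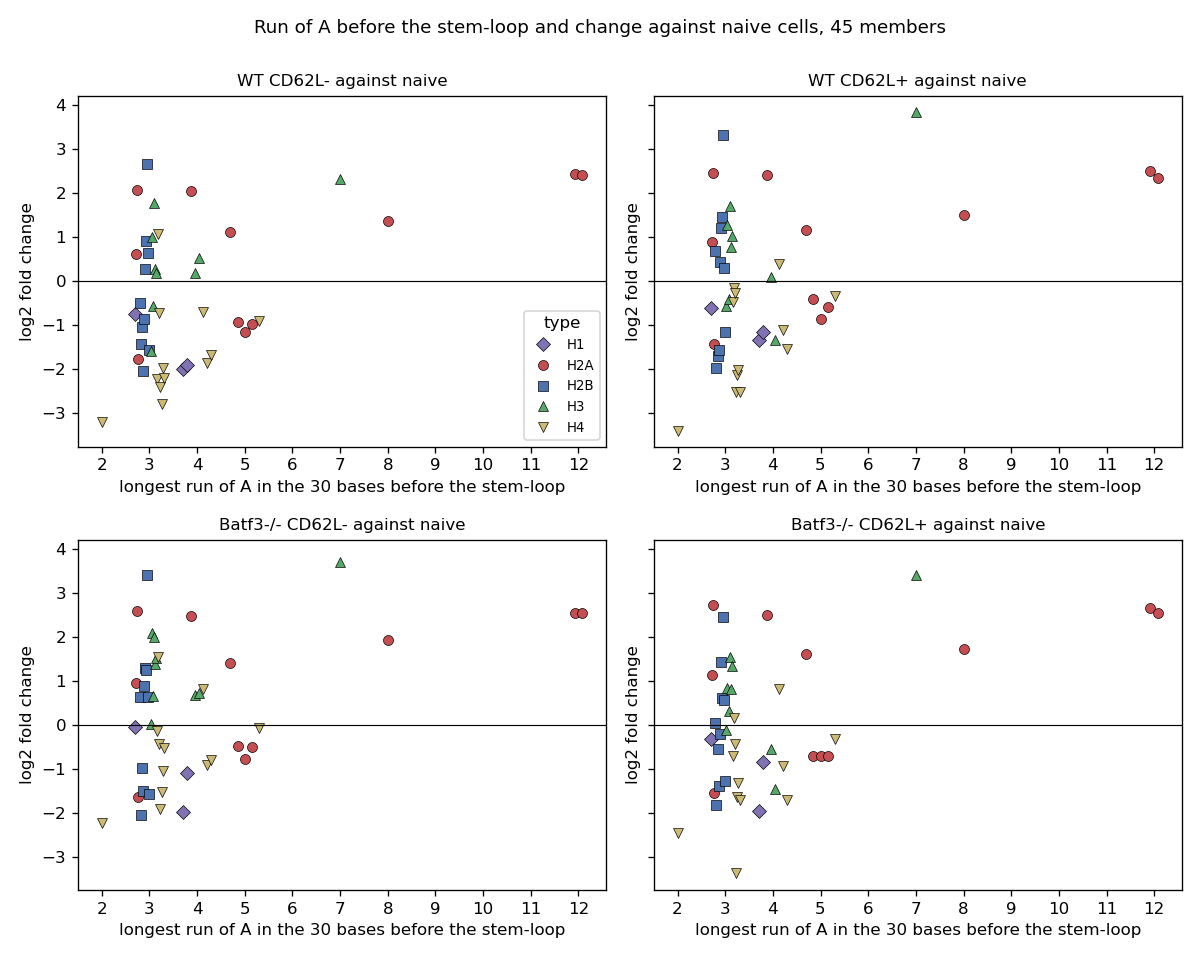
Log2 fold change against naive cells (vertical) and the longest run of A in the 30 bases before the stem-loop (horizontal) for the 45 tested members with a stem-loop, in 1 panel per primed group, with symbols for histone type. The 4 members with runs of 7 or more lie above 0 in every panel, while those with runs of 2 to 5 lie on both sides.

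The second comparison set CD62L- against CD62L+ cells. A single member differed, Hist1h3f, which encodes a replication-dependent H3 and was higher in CD62L- cells of both kinds of recipient. It stood at 3.47, 4.05 and 2.33 CPM in WT CD62L- and 1.21, 0.787 and 0.743 CPM in WT CD62L+ libraries. In Batf3-/- recipients it stood at 2.76, 3.91 and 4.71 CPM in CD62L- and 1.03, 0.644 and 0.826 CPM in CD62L+ libraries. The fractions did not overlap in either kind of recipient, and naive libraries, at 1.47, 2.46 and 2.96 CPM, lay above the CD62L+ range, and the last 2 of them within the CD62L- range. Hist1h3f was 3.59-fold higher in CD62L- cells of WT recipients (log2 fold change 1.85, SE 0.38, adjusted p = 0.0256, edgeR), 4.54-fold in Batf3-/- recipients (2.18, SE 0.38, adjusted p = 0.0208) and 4.04-fold in the mean of recipients (2.01, SE 0.27, adjusted p = 0.000775). Thus 1 of 66 members was called in each, where 1.22% of all genes were called in WT recipients (0.672% higher, 0.552% lower), 0.501% in Batf3-/- recipients (0.286% and 0.216%) and 2.96% in the mean (1.53% and 1.43%).

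The call in the mean of recipients held in all 26 alternative settings (adjusted p from 1.48e-11 to 0.00389 over edgeR, DESeq2 and limma). The calls within a recipient did not. In WT recipients it was lost without the first or second CD62L- library (adjusted p = 0.0516 and 0.107, edgeR) and without the second or the third CD62L+ library (0.142 and 0.139). In Batf3-/- recipients it was lost without the second or the third CD62L- library (adjusted p = 0.074 and 0.0773, edgeR) and without any 1 of the CD62L+ libraries (0.0635, 0.125 and 0.0991). Hist1h3f shares 49.3% of its windows with other genes, 41.0% with Hist1h3e alone. Hist1h3e had log2 fold changes of 0.09 and 1.22 in the 2 kinds of recipient and did not pass (adjusted p = 0.43 in the mean, edgeR).

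Markers and other RNAs moved with this comparison. Of the 8 B cell markers, 5, 4 and 6 were called lower in CD62L- cells in WT recipients, Batf3-/- recipients and the mean, with the summed levels given above. Rn7s1 and Rn7s2, RNAs of the signal recognition particle that lack a poly(A) tail, were higher in CD62L- cells in the mean of recipients (log2 fold changes 2.06 and 1.93, adjusted p = 0.00104 and 0.000737, edgeR). Their part in the difference of Hist1h3f was not tested. At an unadjusted p under 0.05, 8 members differed in WT recipients (12.1%, against 12.3% of all genes), 3 in Batf3-/- recipients (4.55 against 8.12%) and 3 in the mean (4.55 against 14.7%). No member was called for an interaction of fraction and recipient by edgeR or DESeq2, with 2 of 66 (3.03%) at an unadjusted p under 0.05 against 4.31% of all genes. For Hist1h3f the interaction was 0.34 on the log2 scale (SE 0.52, adjusted p = 1, edgeR).

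The third comparison set cells of Batf3-/- recipients against those of WT recipients. No member was called by edgeR in CD62L- cells, in CD62L+ cells or in the mean of both, where 0.0501% (0.0251% in each direction), 0.00501% and 0.441% (0.271% higher, 0.17% lower) of all genes were. In CD62L- cells 15 of 66 members had an unadjusted p under 0.05 (22.7%, against 10.5% of all genes), 14 of them higher in Batf3-/- recipients. In CD62L+ cells 1 did (1.52 against 5.78%), and in the mean 8 did (12.1 against 11.8%), all higher. DESeq2 called 3 members in CD62L- cells, none in CD62L+ cells and 2 in the mean, and limma's voom with library weights called none, none and 1.

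The members that DESeq2 called in CD62L- cells were Hist1h4m and Hist1h3h, higher in Batf3-/- recipients, and Hist1h2bc, lower. In edgeR they had log2 fold changes of 1.24 (SE 0.36), 2.85 (SE 0.82) and -0.73 (SE 0.21) and adjusted p = 0.263, 0.264 and 0.251. The WT CD62L- libraries had lower totals (38082967 to 64938211 counts) than the Batf3-/- CD62L- libraries (77620291 to 89129489), and the part of depth was not tested. Without the third WT CD62L- library, Hist1h2ap was called higher in Batf3-/- recipients in the mean (log2 fold change 0.33, adjusted p = 0.0412, edgeR).

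Genes that make, fold and turn over histones were counted from lists, with the numbers called against naive cells given in the order of groups used above. Of 19 genes for histone transcription and 3' processing, 3, 4, 3 and 3 rose and 1, 1, 2 and 1 fell, with medians of 0.06, 0.03, -0.04 and 0.08 on the log2 scale. The count that rose lies near the 16.9, 15.8, 16.5 and 16.9% of all genes called higher. Slbp rose, from 89.5 ± 8.04 CPM in naive cells (SD, n = 3) to 161 ± 17.4, 152 ± 42.0, 174 ± 39.2 and 172 ± 25.6 CPM (adjusted p = 0.00382, 0.0082, 0.00164 and 0.00188, edgeR). Ccne1, a cyclin E gene whose kinase acts on NPAT, rose by 1.62 to 2.01 on the log2 scale. Npat itself averaged 39.5 CPM in naive and 39.2 to 44.7 CPM in primed groups and did not pass. Of 14 histone chaperone and supply genes, 5, 5, 6 and 6 rose and 1, 1, 0 and 0 fell, with medians of 0.12, 0.17, 0.21 and 0.27. The same shares of all genes called higher stand beside these counts. Chaf1a, a subunit of the chromatin assembly factor that places histones on new DNA, rose by 3.43 to 3.58 on the log2 scale, and Asf1b, an H3 and H4 chaperone, by 2.42 to 2.66.

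Of 6 genes for the decay of histone messages, 0, 1, 0 and 0 rose and 1 fell in each group. Over all genes, 16.9, 15.8, 16.5 and 16.9% were called higher and 13.2, 11.4, 12.8 and 13.3% lower. The count of decay genes that fell lies near the latter shares. The decay gene that fell was Zcchc11, a terminal uridylyltransferase (log2 fold changes -1.70, -1.54, -1.52 and -1.55, largest adjusted p = 3.8e-05, edgeR). The same shares of all genes stand beside the counts of the lists below. Of 24 DNA replication genes 16, 16, 17 and 16 rose and 2 fell in each group, Cdt1 and Gins2. Rrm2, a subunit of ribonucleotide reductase, rose by 3.87 to 4.13 on the log2 scale. All 20 G2 and mitosis genes rose in each group, with median log2 fold changes of 5.31, 5.53, 5.38 and 5.31. Replication and division genes were thus mostly higher in primed cells, where all called H2B and H4 genes were lower.

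Many histone genes outside the clusters are transcribed through the cell cycle and make polyadenylated messages, though this need not hold for every gene listed here. Of 10 tested genes listed as replication-independent, 7, 6, 5 and 7 rose and none fell. H2afz, the gene of an H2A variant, rose by 1.19, 1.46, 1.39 and 1.69 on the log2 scale, H2afx by 1.25, 1.59, 1.67 and 1.73, and H1f0, a linker histone of resting and differentiated cells, by 2.79, 2.53, 2.51 and 2.16 (largest adjusted p = 8.14e-05, edgeR). H3f3a and H3f3b, which encode a replacement H3 histone, had small values. H3f3a passed in WT CD62L- cells (log2 fold change 0.51, adjusted p = 0.0349, edgeR) and not in the others (0.41 to 0.44). H3f3b passed in all groups but Batf3-/- CD62L- (0.40, 0.52 and 0.42, against 0.25). In the comparisons of fractions and recipients, no gene of these lists was called except Ipo4, an importin for histones, which was lower in CD62L- cells in the mean of recipients (log2 fold change -0.30, adjusted p = 0.043, edgeR).

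The 3 members below the filter on low counts are known from the germ line. Hist1h1t, the testis-specific H1, had 13 counts in all over 3 libraries. Hist1h2ba and Hist1h2aa, a germ line pair of H2B and H2A genes with overlapping promoter windows, had 12 counts over 7 libraries and 3 counts over 2 libraries. The 34 tested members that were never called include genes of all types.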

How the data were processed

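RNA of sorted mouse T cells was amplified over 13 cycles and sequenced. The deposited table holds gene counts that the authors made, per the submitters' processing notes, with Trimmomatic 0.36, STAR 2.7.3a and featureCounts (Subread 1.6.5) on mm10, together with exon lengths. How counts on several genes were treated is not stated in those notes. All 15 libraries entered a single edgeR 4.0.16 quasi-likelihood fit (R 4.3.3, TMM scaling, filterByExpr with a minimum count of 10, robust) with 11 contrasts and Benjamini-Hochberg adjustment over 19942 genes. SE was derived from the fold change and its F statistic. CPM used TMM-scaled library sizes, and CPM per kb used the deposited exon length. Sequences came from GENCODE M21 transcripts and RefSeq promoters on GRCm38. The fit was tested on simulated data. Alternatives were RLE scaling, other filters, DESeq2 1.42.0, limma 3.58.1 voom with library weights, a replicate block, rRNA share as covariate, rRNA and mitochondrial genes left out of library sizes, the compared groups only, and libraries left out. Named genes were the 3 most abundant members of each type per length, up to 5 called members per direction and comparison with the largest changes and no overlap, a few fixed genes, and the 2 most significant genes per list and direction. Others were chosen after values were seen. The members and lists were chosen with earlier results of these data known.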

Additional observations from a re-analysis of the deposited data

How the results depend on the processing

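Over 26 alternatives, the 101 called values of members gave 2619 recomputed values. None changed sign, 176 lost the call, and 71 of the 101 calls held throughout. Members called against naive cells numbered 19 to 32 in WT CD62L-, 18 to 31 in WT CD62L+, 19 to 33 in Batf3-/- CD62L- and 20 to 32 in Batf3-/- CD62L+ cells, libraries left out included. For CD62L- against CD62L+ cells, 1 member was called in each comparison. In WT recipients it became 0 with the compared groups only and 0 to 1 with a library left out. In Batf3-/- recipients it became 0 with the compared groups only, 0 with rRNA share and replicate block together, 0 without the third library of both CD62L- groups, 2 with DESeq2 and 0 to 1 with a library left out. In the mean it became 2 with DESeq2. For Batf3-/- against WT recipients, 0 became 3 with DESeq2 in CD62L- cells. In the mean it became 1 with voom, 2 with DESeq2 and 0 to 1 with a library left out. The cause was not tested. Same-numbered libraries of different groups correlated by 0.016 to 0.111 in their deviations from group means (30 pairs, median 0.055). Differently numbered ones correlated by -0.106 to 0.03 (60 pairs, median -0.023). The first libraries also had the lowest rRNA shares, as given above. The main fit did not model the number, and whether it marks a pairing or a batch was not tested. With a replicate block alone 99 of 101 calls held, and 24, 24, 24 and 25 members were called against naive cells, 1 in each comparison of fractions, and 0 in the others. Counts near 0, as for Hist1h1b and Hist1h3c in naive cells, limit the size of their changes.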

Other observations

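Small gene models that lie on the opposite strand inside histone genes carried 22.6 to 100% of the counts of their hosts in 6 host genes. Gm44466 held 54.7 to 55.5% of the count of Hist1h2ap in naive and at most 56.7% in primed libraries. Gm19658 held 33.1 to 45.5% of that of Hist1h2ao in naive and 27.3 to 43.5% in primed libraries. Gm44484 held 94.1 to 100% of that of Hist1h2ab in naive and 66.3 to 95.0% in primed libraries. Of the 69 members, 25 overlapped another annotated gene, 23 of them on the opposite strand. The sources used here do not say whether reads were counted by strand, so these counts cannot be told apart from those of the host.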
